A study of Mus musculus with 8 samples.

Results

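Whole kidneys of mice lacking both Col4a3 and osteopontin (Col4a3-/-OPN-/-, 3 mice, called double mutant) were compared with kidneys of wild type mice (2 mice) by hybridizing the total RNA of each kidney to 1 array. These are 5 of the 8 arrays of the series, taken by their titles; the other 3 are Col4a3-/- kidneys (single mutant), which entered the model that estimates the spread and are not described for their own sake. All mice were 2 months old and every kidney was snap frozen; the labels give no strain, sex, litter or sign of disease stage. The values are log2 expression levels, 1 per gene and array, so that a difference of 1 is a doubling. The deposited table held 33793 probe sets for 22180 named genes, and 7145 genes with a mean above log2 6.64 over the 8 arrays were tested. Because that mean includes the mutant arrays, some genes that are low in wild type kidney were tested only through their level in the mutants, and counts over tested genes are given as descriptions. Over all measured members, tested or not, list medians were 1.30 for matrix (28 genes), 1.44 for macrophage (28), 0.84 for chemokine (25) and 1.22 for tubule injury genes (26), lower than the medians over tested members given with each list.

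Col4a3 encodes the alpha 3 chain of type IV collagen, which joins the alpha 4 and alpha 5 chains in the network of the mature glomerular basement membrane. Its loss in mice is a standard model of Alport syndrome, in which the filter leaks protein and the kidney goes on to inflammation, tubule loss and scarring. Osteopontin is a secreted phosphoprotein that is made by injured tubules and by macrophages and that binds integrins and CD44. Its own gene is not analysed here, so the second deletion was not checked on the arrays. No group lacks osteopontin alone, and both deletions separate the double mutant from wild type, so neither deletion's share of a difference can be told apart in this comparison.

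Promoter sequences are shown for 2 genes that were picked because their window holds a motif match. They are Nupr1, the gene with the smallest p, and Treh, which had the smallest p among lower genes that did not pass. The windows of Havcr1 (higher) and Hpd (lower) also held a match, both to the AP-1 motif TGANTCA, and are not shown. Each sequence runs 5′ to 3′ on the gene's strand from 250 bases before to 50 bases after the RefSeq start (GRCm38.p6), and capitals mark a motif match. The Nupr1 window is chr7:126625421-126625720 on the minus strand, with a match to the C/EBP-ATF motif TGATGNAA (as its reverse complement) beginning at base -110 from the start. The Treh window is chr9:44672983-44673282 on the plus strand, with a match to the HNF4 motif CAAAGTCCA (as its reverse complement) beginning at base -71.
Nupr1: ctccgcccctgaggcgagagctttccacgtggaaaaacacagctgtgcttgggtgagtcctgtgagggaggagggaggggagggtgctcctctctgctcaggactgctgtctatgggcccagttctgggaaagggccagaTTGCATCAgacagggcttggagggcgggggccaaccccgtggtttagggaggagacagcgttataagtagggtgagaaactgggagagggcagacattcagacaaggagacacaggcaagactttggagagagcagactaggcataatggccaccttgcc
Treh: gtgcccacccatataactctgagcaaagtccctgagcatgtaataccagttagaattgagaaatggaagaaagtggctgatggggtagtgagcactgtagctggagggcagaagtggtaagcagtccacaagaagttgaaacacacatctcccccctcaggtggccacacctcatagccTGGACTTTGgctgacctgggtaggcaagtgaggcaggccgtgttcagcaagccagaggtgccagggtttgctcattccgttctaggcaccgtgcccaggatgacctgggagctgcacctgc
C/EBP and ATF factors act in acute phase and stress responses, and HNF4 is a factor of the proximal tubule. On either strand the C/EBP-ATF motif stood in 2.57% and the HNF4 motif in 0.51% of the 5681 tested genes that have such a window. A match describes letters in a window and is no evidence of binding.

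The arrays showed that the groups differ in sex as well as genotype. Xist, transcribed from the inactive X chromosome of females, measured 4.64 and 4.63 in the wild types and 9.59, 8.85 and 4.52 in double mutants 1, 2 and 3. Eif2s3y, a Y-linked gene, measured 7.81 and 8.06 in wild type against 4.56, 4.44 and 7.69 in double mutant kidney, and Uty and Kdm5d, also Y-linked, split the arrays the same way. Both wild type mice and double mutant 3 thus read as male, and double mutants 1 and 2 as female. A pair of further fits was therefore set beside the comparison: the same 3-group model with a term for sex, in which the single mutants (2 female and 1 male) help to estimate the sex effect, and a fit of the 5 arrays alone. Double mutant 3 against the wild type pair gives differences between males, from 1 mutant mouse and without a test. Kidney markers were present, with a mean over 31 proximal tubule transport genes of 10.5 on each wild type array and 9.70 to 9.99 on the double mutant arrays. Of 8 adrenal, 7 skeletal muscle and 10 neutrophil markers none lay above the filter in either group. Among fat markers only Fabp4, which endothelium also makes, did so.

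Col4a3 measured 8.77 and 8.42 in wild type and 6.82, 6.13 and 7.60 in the double mutants. All 3 double mutants lay below both wild types, by a mean of -1.75 (SE 0.46), which did not pass (adjusted p = 0.0998; 0.0657 with the sex term; limma). The female double mutants read lower than the male, whose difference from the wild type mean was -1.0. Where the probe set lies relative to the deleted stretch is not known here, so remaining signal does not go against the label.

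Across the 7145 genes, limma's moderated test called 4 genes higher (0.056 percent) and 2 lower (0.028 percent) in double mutant kidney at a Benjamini-Hochberg adjusted p under 0.05. At an unadjusted p under 0.05 there were 1544 genes, 631 higher and 913 lower. The median SD over tested genes was 0.11 in wild type, with 2 males, and 0.19 in double mutants and 0.21 in single mutants, with both sexes. It was 0.13 in single mutants without replicate 2 and 0.11 in double mutants without replicate 3, each the only male of its group. A median SD from 2 arrays runs lower than one from 3, so these values are not directly comparable. Whether sex or 1 mouse widened the spread was not tested. Without single mutant replicate 2 the same model called 292 genes higher and 298 lower. The fit of the 5 arrays alone called 193 genes higher (2.7 percent) and 151 lower (2.11 percent), and 333 of these 344 were also called, in the same direction, with the sex term. The 3-group fit of all 8 arrays with the sex term called 457 higher (6.4 percent) and 1271 lower (17.8 percent), a split that became 662 and 892 after quantile normalization and 709 and 851 after cyclic loess. Leaving out wild type replicate 2 cut it to 37 and 33. Without wild type replicate 1 the sex-term counts were 204 and 666, and without single mutant replicate 2 they were 321 and 846. By size, 333 genes were at least 1 lower in the male double mutant with the female mean within 1 of wild type. Of these, 296 were called with the sex term and 22 in the fit of 5 arrays. Of 78 genes at least 1 lower in both sexes, 69 and 56 were called. On the higher side, 81 genes were at least 1 higher in the male alone (56 and 8 called) and 147 in both sexes (138 and 118). Many large sex-term calls on the lower side thus rest on 1 male. For the 3-group fit without the sex term, leaving out double mutant replicate 3 gave 18 higher and 23 lower, leaving out double mutant replicate 2 gave 1 higher, and leaving out single mutant replicate 1 or 3 gave 2 higher and 1 lower. Leaving out wild type replicate 1, wild type replicate 2 or double mutant replicate 1 gave no call (limma), with 1035, 691 and 1241 genes at an unadjusted p under 0.05.

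The 6 genes called were Serpina3n, Lcn2, Nupr1, Acta2, Msrb1 and Galnt14, and each was called again in the fit of 5 arrays and with the sex term. Serpina3n, a secreted serine protease inhibitor of the acute phase, measured 5.63 and 5.91 in the wild types and 10.75, 9.84 and 10.12 in double mutants 1, 2 and 3. It rose by 4.47 (SE 0.45), or 22.1-fold, with adjusted p = 0.0217 (limma, n = 2 and 3). Lcn2, the iron-siderophore carrier NGAL that injured tubules secrete, measured 5.74 and 5.96 in wild type against 9.37, 9.59 and 9.88 in double mutant kidney. It rose 13.6-fold (log2 3.76, SE 0.39, adjusted p = 0.0217, limma). Both genes lay near the low end of the array's range in wild type kidney and well inside it in all 3 double mutants. Their wild type levels were below the filter, so both were tested only through their levels in the mutants. Without the filter neither was called (limma, no sex term).

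Nupr1, a small chromatin protein induced by cell stress, had the smallest p. Its levels were 6.84 and 6.78 in wild type and 8.80, 8.95 and 8.62 in the double mutants, a rise of 1.98 (SE 0.14; 3.93-fold; adjusted p = 0.00439, limma). Acta2, smooth muscle actin and the usual marker of myofibroblasts, measured 8.50 and 8.65 in the wild types and 9.91, 10.04 and 9.80 in double mutants 1, 2 and 3, a rise of 1.34 (SE 0.15; adjusted p = 0.0346, limma). In neither gene did the groups overlap, and the male double mutant was the lowest of the 3 in both.

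Msrb1, a selenoprotein that repairs oxidized methionine, measured 10.33 and 10.33 in wild type against 9.09, 9.10 and 9.11 in double mutant kidney, with a double mutant SD of 0.011. It fell by 1.23 (SE 0.12; adjusted p = 0.0217, limma). Galnt14, which starts O-linked glycosylation of proteins, measured 8.08 and 8.15 in wild type and 7.16, 7.09 and 7.17 in the double mutants, and fell by 0.97 (SE 0.11; adjusted p = 0.0346, limma). In the male double mutant alone the differences were 4.35 for Serpina3n, 4.03 for Lcn2, 1.80 for Nupr1, 1.23 for Acta2, -1.22 for Msrb1 and -0.95 for Galnt14. In all 6 this male differed from the wild type males in the direction and at about the size seen over all 3 mice. It is 1 of the mice on which the genes were called, so its agreement is no separate support. Without wild type replicate 1, wild type replicate 2 or double mutant replicate 1 none of the 6 was called, and without double mutant replicate 2 Nupr1 alone was.

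**Figure D1:**
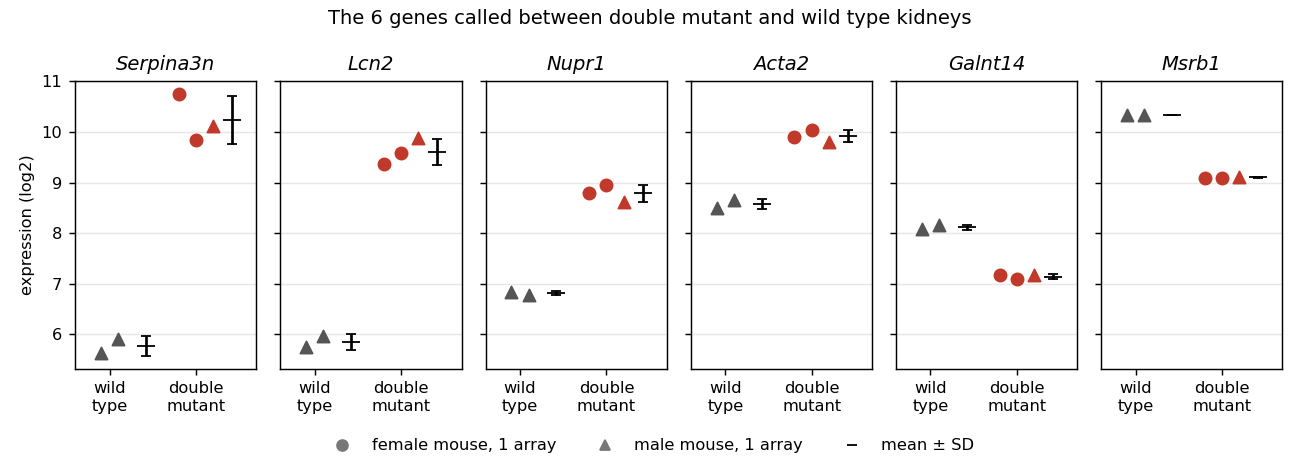
Expression (log2) of the 6 called genes in each wild type and double mutant kidney; circles are female and triangles male mice, 1 array each, and bars are the group mean ± SD (n = 2 and 3). In every panel the double mutant points lie clear of the wild type points, for the male double mutant as for the females.

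The genes with the next smallest p in each direction did not pass, with adjusted p from 0.0556 to 0.0669 (limma). On the higher side were Lyz2 (lysozyme of macrophages, difference 3.47), Vcam1 (a leukocyte adhesion molecule, 2.81) and Tagln (an actin-binding protein of smooth muscle, 1.51). Beside them stood Map3k1 (a kinase of the JNK cascade, 1.19), Cd24a (a surface glycoprotein, 1.18), Plat (tissue plasminogen activator, 1.04), Crip1 (a LIM protein, 1.03) and Ank (a pyrophosphate transporter, 0.82). On the lower side the largest differences were Cndp1 (carnosine dipeptidase, -2.63) and Treh (trehalase of the brush border, -1.91). Cndp1 measured 9.60 and 10.18 in the wild types and 7.57, 6.90 and 7.32 in double mutants 1, 2 and 3. Osbp2 (-1.69), Dnph1 (-1.54), Tmco3 (-1.34), Ephx2 (-1.18), Agtrap (-1.0), Dnajc22 (-0.96), Fhl1 (-0.95) and Eefsec (-0.86) completed the lower side; Agtrap binds the angiotensin receptor, Ephx2 hydrolyses epoxides of fatty acids, and Eefsec delivers selenocysteine to the ribosome. In each of these genes the groups did not overlap. All 3 double mutants stood above both wild types in 1244 genes (17.4 percent) and below both in 2058 (28.8 percent), so lack of overlap alone was common. A stricter reading, every double mutant at least 1 from the wild type mean, held for 112 genes above (1.57 percent) and 59 below (0.826 percent). With 2 against 3 arrays an exact permutation test of 1 gene cannot give p below 0.1.

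Most matrix genes were higher in all double mutants. Of 18 tested genes for fibrillar collagens and matrix proteins, 17 had all 3 double mutants above both wild types, against 17.4 percent of all tested genes. The median difference of the 18 was 1.57 against -0.08 over all tested genes. None passed in the 3-group fit; 11 were called higher in the fit of 5 arrays (2.7 percent of all tested genes) and 16 with the sex term (6.4 percent of all), and none was called lower in any of the 3 fits. Col1a1, a chain of type I collagen, measured 5.94 and 6.01 in wild type against 8.52, 9.53 and 9.37 in double mutant kidney (difference 3.17, adjusted p = 0.099; 0.0135 in the fit of 5 arrays). Col3a1, type III collagen, measured 6.43 and 6.35 in wild type and 8.54, 9.70 and 9.79 in the double mutants, and Col1a2 6.80 and 6.55 in the wild types and 8.46, 9.06 and 9.03 in double mutants 1, 2 and 3. In these 3 collagens double mutant 1 was the lowest of its group. Mgp, the matrix inhibitor of calcification, went from 9.75 and 9.27 in wild type against 11.94, 11.95 and 12.41 in double mutant kidney, Tnc (tenascin C, a matrix protein of injured tissue) from 5.89 and 5.49 in wild type and 7.84, 8.12 and 8.92 in the double mutants, and Col6a1 (type VI collagen) from 6.34 and 6.45 in the wild types and 7.90, 8.53 and 8.13 in double mutants 1, 2 and 3. Whole kidney RNA does not tell more cells of a type from more RNA per cell, here or in the groups that follow.

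Basement membrane genes were mixed. Of 16 tested genes, 9 had all double mutants above both wild types (17.4 percent of all tested genes) and 1 (Col4a3 itself) below. The median difference was 0.53. Called higher were 0 in the 3-group fit, 1 in the fit of 5 arrays (2.7 percent of all) and 7 with the sex term (6.4 percent). Col4a1, a chain of the collagen IV network found in most basement membranes, measured 7.39 and 7.19 in wild type against 7.49, 8.57 and 8.82 in double mutant kidney, with double mutant 1 near wild type. Its partner Col4a2 measured 7.45 and 7.29 in wild type and 7.68, 8.56 and 8.72 in the double mutants. Col4a4 and Col4a5, the partner chains of Col4a3, overlapped between groups: Col4a4 measured 8.41 and 7.93 in the wild types and 7.58, 7.73 and 8.14 in double mutants 1, 2 and 3, and Col4a5 6.73 and 6.63 in wild type against 6.72, 6.94 and 6.66 in double mutant kidney. Lamc1 (laminin gamma 1) measured 7.61 and 7.25 in wild type and 8.06, 8.15 and 8.28 in the double mutants and Nid1 (nidogen) 8.36 and 8.22 in the wild types and 9.43, 9.67 and 8.88 in double mutants 1, 2 and 3; neither passed without the sex term, and Nid1 did not pass with it.

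Among 12 tested genes of fibroblasts, pericytes and smooth muscle, 10 lay above wild type in all double mutants (17.4 percent of all tested genes). The median difference was 0.99. Acta2 passed in the 3-group fit. In the fit of 5 arrays 5 were called higher (2.7 percent of all tested genes), and with the sex term 7 (6.4 percent). Vim, the intermediate filament of mesenchymal cells, measured 8.19 and 8.42 in wild type against 10.47, 10.39 and 10.21 in double mutant kidney. The fibroblast receptor Pdgfra measured 8.17 and 7.96 in wild type and 9.88, 9.67 and 9.01 in the double mutants and the pericyte receptor Pdgfrb 7.71 and 7.79 in the wild types and 8.88, 8.97 and 8.16 in double mutants 1, 2 and 3. Both receptors were lowest in the male double mutant, and Pdgfrb was called in none of the 3 fits. Of 10 tested genes of TGF-beta and connective tissue growth, 7 lay above wild type in all double mutants and 1 below. The corresponding shares of all tested genes were 17.4 and 28.8 percent. The median was 0.51. In the fit of 5 arrays 3 were called higher and none lower, and with the sex term 4 higher and 1 lower. Tgfb1, the ligand, measured 6.99 and 7.29 in wild type against 8.32, 8.62 and 8.65 in double mutant kidney, and Tgfbi, a matrix protein it induces, 7.10 and 7.38 in wild type and 8.93, 9.12 and 9.43 in the double mutants. Ccn2 (connective tissue growth factor) measured 8.32 and 8.17 in the wild types and 9.68, 9.19 and 9.34 in double mutants 1, 2 and 3. Of 7 tested matrix proteases and inhibitors, 5 lay above wild type in all double mutants and 1 below, and the median was 1.15. In the fit of 5 arrays 3 were called higher and with the sex term 4, and none lower. The collagenase Mmp14 measured 6.55 and 6.44 in wild type against 8.42, 8.43 and 8.17 in double mutant kidney, the gelatinase Mmp2 5.91 and 5.86 in wild type and 8.28, 8.01 and 7.25 in the double mutants and the proteoglycan-cutting Adamts1 6.96 and 6.87 in the wild types and 7.81, 8.05 and 8.67 in double mutants 1, 2 and 3. For Mmp2 the male double mutant was the lowest of its group, and for Adamts1 the highest.

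Tubule injury genes carried 2 of the 4 genes called higher, Lcn2 and Nupr1. Of 23 tested, 18 lay above wild type in all double mutants (17.4 percent of all tested genes) and none below. The median difference was 1.31. In the fit of 5 arrays 9 were called higher (2.7 percent of all), and with the sex term 16 (6.4 percent). Havcr1 (KIM-1), a receptor that injured proximal tubules display, measured 4.78 and 7.92 in wild type against 7.58, 10.49 and 10.76 in double mutant kidney. Its difference of 3.26 did not pass (adjusted p = 0.181); the wild type mice lay far apart, and wild type 2 exceeded double mutant 1. With the sex term it was 4.34 (adjusted p = 0.0419, limma). Krt8, a keratin of simple epithelium, overlapped between groups (8.41 and 8.22 in wild type and 8.31, 8.64 and 9.01 in the double mutants). Of 8 tested acute phase genes, 7 lay above wild type in all double mutants and 1 below, with a median of 1.80. In the fit of 5 arrays 3 were called higher and 1 lower (2.7 and 2.11 percent of all tested genes). With the sex term 5 were called higher and 1 lower (6.4 and 17.8 percent). Over all 16 measured the median was 0.95, with 12 above and 1 below, against 15 and 19.1 percent of all measured genes. Beside Serpina3n, Osmr (the oncostatin M receptor) measured 7.16 and 6.66 in the wild types and 8.97, 8.98 and 9.40 in double mutants 1, 2 and 3 and Cp (ceruloplasmin) 8.37 and 8.82 in wild type against 10.06, 10.36 and 10.10 in double mutant kidney. Saa2 and Saa3, serum amyloids that liver and macrophages release, stayed near the low end of the range (4.78 and 4.80 in wild type and 4.84, 5.03 and 5.20 in the double mutants for Saa3).

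Most macrophage and monocyte genes were higher as well. Of 14 tested, 12 were above wild type in all double mutants (17.4 percent of all tested genes), with a median of 1.80. None passed in the 3-group fit. Called higher were 10 both in the fit of 5 arrays (2.7 percent of all) and with the sex term (6.4 percent). Ctss, a lysosomal protease of the MHC class II pathway, measured 6.97 and 6.76 in the wild types and 9.76, 9.76 and 9.83 in double mutants 1, 2 and 3. Its difference was 2.92 (adjusted p = 0.0691, and 0.00362 in the fit of 5 arrays, limma). Lyz2 measured 5.81 and 6.59 in wild type against 9.42, 9.87 and 9.72 in double mutant kidney, Cd68 (a lysosomal glycoprotein of macrophages) 6.14 and 6.49 in wild type and 8.0, 8.05 and 7.85 in the double mutants, and Fcer1g (a signalling chain of Fc receptors) 6.63 and 7.03 in the wild types and 8.60, 8.90 and 8.43 in double mutants 1, 2 and 3. Csf1r, the receptor for macrophage colony-stimulating factor, measured 8.05 and 8.31 in wild type against 8.23, 8.41 and 8.09 in double mutant kidney; the groups overlapped, and the difference of 0.06 turned to -0.07 without wild type replicate 1. Adgre1, a surface receptor of macrophages, was below the filter and not tested; it measured 5.24 and 5.33 in wild type and 6.63, 6.85 and 6.56 in the double mutants.

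Of 7 measured MHC class II genes, which present antigen, 5 lay above both wild types in all double mutants, against 15 percent of all measured genes. The median difference was 0.71. The 4 tested had a median of 1.40. Called higher were 3 both in the fit of 5 arrays (2.7 percent of all tested genes) and with the sex term (6.4 percent). H2-Eb1, a beta chain, measured 7.77 and 7.77 in the wild types and 9.41, 9.37 and 9.46 in double mutants 1, 2 and 3, H2-Aa 7.93 and 8.47 in wild type against 10.07, 10.20 and 9.73 in double mutant kidney and H2-Ab1 10.30 and 10.71 in wild type and 11.63, 11.80 and 11.55 in the double mutants. Of 3 tested lymphocyte genes, the pan-leukocyte phosphatase Ptprc measured 5.45 and 5.99 in the wild types and 7.95, 7.62 and 7.86 in double mutants 1, 2 and 3 and the surface glycopeptide Cd52 5.77 and 5.90 in wild type against 7.86, 7.49 and 7.44 in double mutant kidney, both clear of wild type. Ighm, the heavy chain of IgM, overlapped (6.82 and 7.69 in wild type and 10.08, 7.57 and 8.86 in the double mutants). Of 18 measured lymphocyte genes, most of them under the filter, 7 lay above wild type in all double mutants, against 15 percent of all measured genes. Among the chains of the T cell receptor complex Cd3e was one of these (5.52 and 5.30 in the wild types and 7.32, 6.23 and 5.78 in double mutants 1, 2 and 3), as was Cd3g (5.18 and 5.03 in wild type against 7.04, 6.16 and 5.73 in double mutant kidney), highest in double mutant 1, while Cd3d stayed level (4.92 and 4.97 in wild type and 4.97, 4.97 and 4.96 in the double mutants). Of 4 tested complement genes, 2 were called higher in the fit of 5 arrays: Serping1, the C1 inhibitor (8.97 and 9.01 in the wild types and 10.83, 10.72 and 9.98 in double mutants 1, 2 and 3), and C7 (6.33 and 7.18 in wild type against 8.56, 8.36 and 8.48 in double mutant kidney). Cfb, factor B of the alternative pathway, overlapped (9.57 and 9.80 in wild type and 9.11, 9.41 and 9.89 in the double mutants).

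Of 13 tested chemokine and cytokine genes, 7 lay above wild type in all double mutants (17.4 percent of all tested genes), with a median of 1.03. In the fit of 5 arrays 6 were called higher (2.7 percent of all). Ccl5, which draws T cells and monocytes, measured 5.39 and 6.16 in the wild types and 7.76, 8.98 and 8.97 in double mutants 1, 2 and 3. Cxcl14 measured 7.89 and 7.33 in wild type against 9.04, 9.16 and 8.58 in double mutant kidney, and the alarmin Il33 6.34 and 6.05 in wild type and 7.33, 7.44 and 7.11 in the double mutants. The monocyte chemokine Ccl2 was under the filter and measured 5.18 and 5.47 in the wild types and 6.05, 6.86 and 7.15 in double mutants 1, 2 and 3. Interferon response genes lay higher by less: the median over 7 tested genes was 0.51, with 1 call in the fit of 5 arrays. That was Psmb8, an immunoproteasome subunit (6.33 and 6.02 in wild type against 6.98, 7.0 and 7.06 in double mutant kidney). Ifit1, a classic type I interferon target, measured 5.93 and 5.74 in wild type and 6.52, 6.20 and 5.79 in the double mutants and overlapped between groups.

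**Figure D2:**
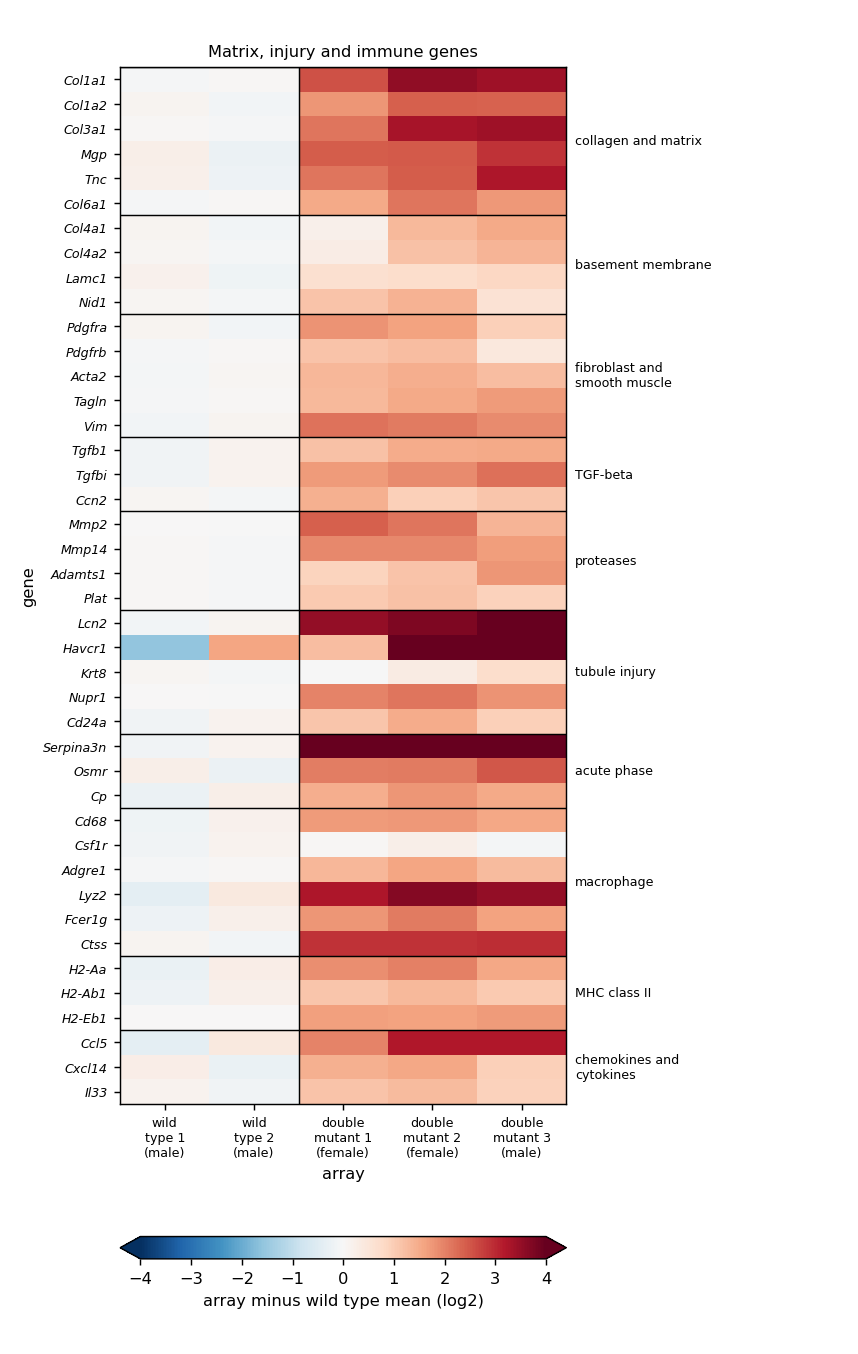
Heat map of matrix, injury and immune genes; each cell is an array's log2 level minus the wild type mean, and the colour scale ends at 4 in either direction, so the cells of Serpina3n, Lcn2 and Havcr1 beyond it share the end colour. In the genes drawn, double mutant cells are above 0 almost throughout. Many of these genes were drawn for their small p in this comparison, so that pattern is no result of its own. Some members named first in their lists, such as Saa2 and Saa3, are not drawn. Csf1r stays near 0, Krt8 is above 0 mainly in double mutant 3, and wild type 2 is high for Havcr1.

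Osteopontin acts through integrins that pair alpha v with several beta chains, through other integrins and through CD44. Of 6 tested receptor genes, 4 lay above wild type in all double mutants (17.4 percent of all tested genes), with a median difference of 0.58. Of all tested genes, 2.7 percent were called higher in the fit of 5 arrays and 6.4 percent with the sex term. Itgav, the alpha v chain, measured 9.50 and 9.50 in the wild types and 9.98, 10.33 and 10.43 in double mutants 1, 2 and 3 and Itgb1, the beta 1 chain, 9.0 and 9.17 in wild type against 9.71, 9.88 and 9.76 in double mutant kidney. Itgb1 was the only one called in the fit of 5 arrays (adjusted p = 0.0475, limma), and with the sex term Itgav, Itgb1 and Itga9 were called. Itga9, the alpha 9 chain, measured 6.44 and 6.42 in wild type and 6.73, 7.15 and 7.32 in the double mutants, and Itgb3, the partner of alpha v on osteoclasts and platelets, 5.47 and 5.50 in the wild types and 5.63, 6.01 and 6.13 in double mutants 1, 2 and 3. Itgb3 was under the filter and not tested, and so was Cd44. Cd44 measured 4.87 and 4.79 in wild type against 5.98, 6.52 and 6.41 in double mutant kidney. Of 10 measured receptor genes, 8 lay above wild type in all double mutants, against 15 percent of all measured genes.

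Most proximal tubule genes were lower in all double mutants, females and male. Of 31 tested transport genes, 19 had every double mutant below both wild types (28.8 percent of all tested genes) and 1 above. The median difference was -0.68. In the fit of 5 arrays 7 were called lower (2.11 percent of all) and 1 higher. With the sex term 17 were called lower (17.8 percent of all) and 1 higher. Slc22a6 (OAT1), the organic anion transporter of the basolateral side, measured 11.39 and 11.66 in wild type against 10.14, 10.23 and 10.70 in double mutant kidney. Slc26a1, a sulfate and oxalate exchanger, measured 8.99 and 9.06 in wild type and 7.48, 7.81 and 7.80 in the double mutants, and Amn, which with cubilin takes up filtered protein, 7.91 and 8.08 in the wild types and 6.98, 7.10 and 7.06 in double mutants 1, 2 and 3. Slc34a1, the main phosphate transporter, measured 12.80 and 12.87 in wild type against 12.41, 12.37 and 12.30 in double mutant kidney, and the glucose transporter Slc5a2 (SGLT2) 10.27 and 10.40 in wild type and 9.50, 8.44 and 9.36 in the double mutants, with double mutant 2 the lowest. None of these passed in the 3-group fit. Slc22a6, Slc26a1 and Amn were called lower in the fit of 5 arrays, while Slc34a1 (adjusted p = 0.0801) and Slc5a2 (0.0853) were not (limma).

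Brush border and proximal enzyme genes lay lower by about as much, with a median of -0.66. Below wild type in all double mutants were 20 of 26 tested (28.8 percent of all tested genes). In the fit of 5 arrays 8 were called lower (2.11 percent of all), and with the sex term 18 (17.8 percent). Treh measured 9.26 and 9.97 in the wild types and 7.44, 7.99 and 7.70 in double mutants 1, 2 and 3 (difference -1.91, SE 0.24, adjusted p = 0.0556 in the 3-group fit and 0.0222 in the fit of 5 arrays, limma). Mep1b, a subunit of the metalloprotease meprin, measured 9.09 and 9.77 in wild type against 7.89, 8.10 and 7.92 in double mutant kidney, and its partner Mep1a 11.49 and 11.81 in wild type and 10.96, 11.32 and 10.90 in the double mutants. Nat8, which acetylates cysteine conjugates, measured 8.27 and 8.77 in the wild types and 6.41, 7.13 and 7.08 in double mutants 1, 2 and 3, and the aminoacylase Acy3 had a difference of -1.0. In all of these each double mutant lay under both wild types.

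Genes of the respiratory chain and citric acid cycle lay slightly lower. Of 23 tested genes of oxidative phosphorylation, all had a difference below 0, while 2916 of all 7145 tested genes had a difference above 0. In 18 every double mutant was below both wild types (28.8 percent of all tested genes). The median was -0.35, against -0.08 over all tested genes, and 1 gene was called in the fit of 5 arrays. That gene was Sdhc, a membrane subunit of complex II (10.47 and 10.45 in wild type against 9.68, 9.58 and 9.26 in double mutant kidney). Cycs (cytochrome c) measured 11.56 and 11.84 in wild type and 11.05, 11.04 and 11.41 in the double mutants and Ndufa9, of complex I, 10.15 and 10.19 in the wild types and 9.69, 9.75 and 9.40 in double mutants 1, 2 and 3. All 18 tested genes of the citric acid cycle likewise had differences below 0, with a median of -0.35 and no call in the fit of 5 arrays. With the sex term 10 were called lower (17.8 percent of all tested genes). Cs (citrate synthase) measured 10.13 and 10.36 in wild type against 9.91, 10.01 and 9.56 in double mutant kidney, and Pcx (pyruvate carboxylase) 10.37 and 10.34 in wild type and 9.91, 9.03 and 9.46 in the double mutants. Of 31 genes of fatty acid oxidation and the peroxisome, 9 lay below wild type in all double mutants, about the share of all tested genes (28.8 percent). The list's median was 0.03 in double mutant 1, -0.27 in double mutant 2 and -0.51 in double mutant 3. Ephx2, Acads and Crot were the 3 called lower in the fit of 5 arrays. Crot, a peroxisomal carnitine transferase, measured 10.81 and 11.35 in the wild types and 9.94, 9.57 and 9.99 in double mutants 1, 2 and 3, Acads (short-chain acyl-CoA dehydrogenase) 8.91 and 9.05 in wild type against 8.28, 8.19 and 8.22 in double mutant kidney, and Ephx2 10.71 and 10.94 in wild type and 9.93, 9.45 and 9.55 in the double mutants. Their regulator Ppargc1a overlapped between groups and was lowest in the male (9.88 and 9.35 in the wild types and 9.40, 9.44 and 8.33 in double mutants 1, 2 and 3). Of 11 cholesterol synthesis genes none was called without the sex term, with a median of -0.43; Mvd, which makes isopentenyl pyrophosphate, measured 7.29 and 7.79 in wild type against 6.59, 6.92 and 6.69 in double mutant kidney.

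Further down the nephron the female and male double mutants parted. Of 18 tested genes of the loop of Henle and distal tubule, 1 lay above and 2 below wild type in all double mutants. The shares of all tested genes were 17.4 and 28.8 percent. The list's median difference was 0.18 and 0.11 in the females and -0.81 in the male. With the sex term the median was -0.82, and 9 were called lower (17.8 percent of all tested genes). Slc12a1, the NKCC2 cotransporter, measured 11.09 and 11.18 in wild type and 11.41, 11.42 and 10.42 in the double mutants, so the females lay above and the male below both wild types. Umod (uromodulin) went the same way by less (12.33 and 12.34 in the wild types and 12.50, 12.70 and 12.19 in double mutants 1, 2 and 3). Kl (klotho), by contrast, measured 11.24 and 11.17 in wild type against 10.12, 10.12 and 10.29 in double mutant kidney and was called lower in the fit of 5 arrays (adjusted p = 0.02, limma). Cldn10, a claudin of the thick limb, measured 9.45 and 9.97 in wild type and 9.07, 8.26 and 8.08 in the double mutants. The 17 tested collecting duct genes had medians of -0.02 and 0.18 in the females and -0.75 in the male, with no call without the sex term. With that term 5 were called lower, and the median was -0.67. The water channel Aqp2 measured 8.23 and 8.27 in the wild types and 7.86, 9.05 and 7.10 in double mutants 1, 2 and 3, and Aqp4 8.31 and 8.63 in wild type against 7.69, 7.39 and 6.83 in double mutant kidney. With 1 male double mutant, a difference between sexes and a difference of 1 mouse cannot be told apart.

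**Figure D3:**
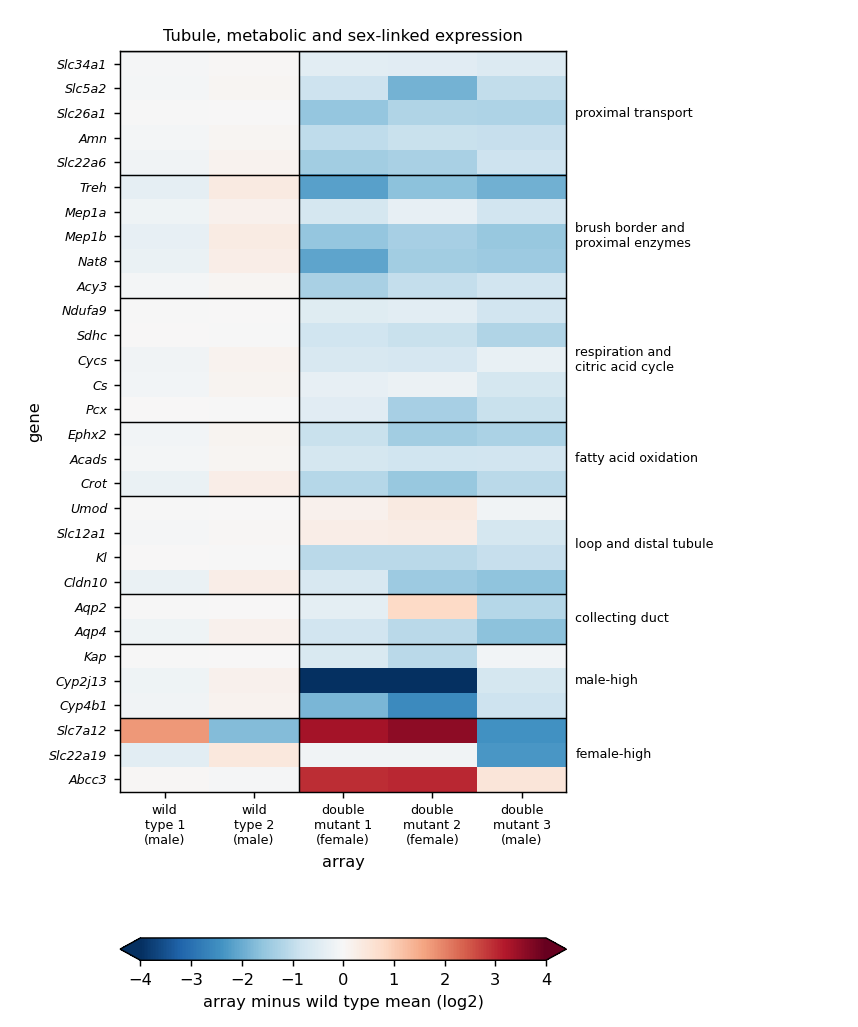
Heat map of tubule, metabolic and sex-linked genes, drawn like the map of matrix genes (log2 level minus wild type mean, colour ending at 4 in either direction, which Cyp2j13 exceeds). The proximal, brush border and 3 fatty acid oxidation genes drawn are below 0 in all 3 double mutants, whereas Slc12a1, Umod, Cyp2j13, Slc7a12 and Abcc3 split the females from the male. Many genes were drawn for their small p in this comparison, so a shared direction among them is no result of its own.

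Podocyte and endothelial genes had small median differences. In the fit of 5 arrays 2.7 percent of all tested genes were called higher and 2.11 percent lower, so lists this short would hold few calls. With the sex term 2 podocyte genes were called higher and 1 lower, and 2 endothelial genes lower. The shares of all tested genes in that fit were 6.4 and 17.8 percent. Of 11 tested podocyte genes, 3 lay above wild type in all double mutants (17.4 percent of all tested genes) and none below (28.8 percent). Their median of 0.14 became -0.05 with the sex term. Wt1, a podocyte transcription factor, measured 6.96 and 6.83 in wild type and 7.28, 7.08 and 6.72 in the double mutants, and the surface sialomucin Podxl 8.76 and 8.55 in the wild types and 9.49, 9.09 and 8.33 in double mutants 1, 2 and 3. Nes (nestin), an intermediate filament that podocytes and other cells make, was the 1 gene called in the fit of 5 arrays (6.03 and 5.96 in wild type against 6.92, 6.90 and 6.83 in double mutant kidney). The slit diaphragm gene Nphs1 was under the filter (6.22 and 6.24 in wild type and 6.79, 6.46 and 5.96 in the double mutants). Of 14 tested endothelial genes none was called without the sex term, with a median of 0.12 (-0.16 with the sex term); by array it was 0.40 and 0.32 in the females and -0.26 in the male. The podocyte list's medians by array were 0.44, 0.25 and 0.05. Pecam1 measured 8.02 and 8.04 in the wild types and 8.84, 8.54 and 8.10 in double mutants 1, 2 and 3, and the VEGF receptor Kdr 8.71 and 8.53 in wild type against 8.43, 8.20 and 7.70 in double mutant kidney. The female double mutants lay above wild type for Pecam1 and the male level with it, while all 3 lay below for Kdr.

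Stress programs other than acute phase did not share a direction. Over 13 tested genes of endoplasmic reticulum and integrated stress the median was 0.03: Nupr1 was called higher, Atf4, the factor of the integrated stress response, overlapped (7.29 and 7.28 in wild type and 7.11, 7.32 and 7.50 in the double mutants), and Shmt2, a mitochondrial serine enzyme, was called lower in the fit of 5 arrays (10.96 and 11.13 in the wild types and 9.85, 9.70 and 9.12 in double mutants 1, 2 and 3). The 15 tested NRF2 targets had a median of -0.02, which turned to 0.03 after quantile normalization and 0.04 after cyclic loess. By array the median was 0.28 and -0.15 in the female double mutants and -0.50 in the male. With the sex term it was -0.55, with 5 called lower (17.8 percent of all tested genes) and none higher. Nqo1 overlapped between groups (8.81 and 8.25 in wild type against 9.02, 8.62 and 7.80 in double mutant kidney), and Gclc, the catalytic subunit for glutathione synthesis, measured 9.56 and 9.72 in wild type and 9.92, 10.25 and 10.57 in the double mutants. Of 13 tested immediate early genes none was called without the sex term; Dusp1, a phosphatase of MAP kinases, lay below wild type in all double mutants (9.88 and 9.99 in the wild types and 8.96, 9.35 and 8.87 in double mutants 1, 2 and 3). Of 10 tested clock genes none was called in any of the 3 fits, and the wild type mice spanned the double mutants for Arntl, the core activator (5.97 and 7.57 in wild type against 6.55, 7.22 and 6.42 in double mutant kidney). Most cell cycle genes were below the filter, and 14 of 19 measured lay above wild type in all double mutants, against 15 percent of all 22180 measured genes. Of the 2 tested, Pcna lay above wild type (7.76 and 7.58 in wild type and 7.85, 7.99 and 8.03 in the double mutants) and Ccnd1 below (9.90 and 9.69 in the wild types and 9.09, 9.08 and 9.41 in double mutants 1, 2 and 3). Mki67, a marker of cycling cells, measured 5.43 and 5.42 in wild type against 6.63, 6.99 and 7.0 in double mutant kidney and Top2a 4.79 and 4.87 in wild type and 5.51, 5.93 and 6.21 in the double mutants.

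**Figure D4:**
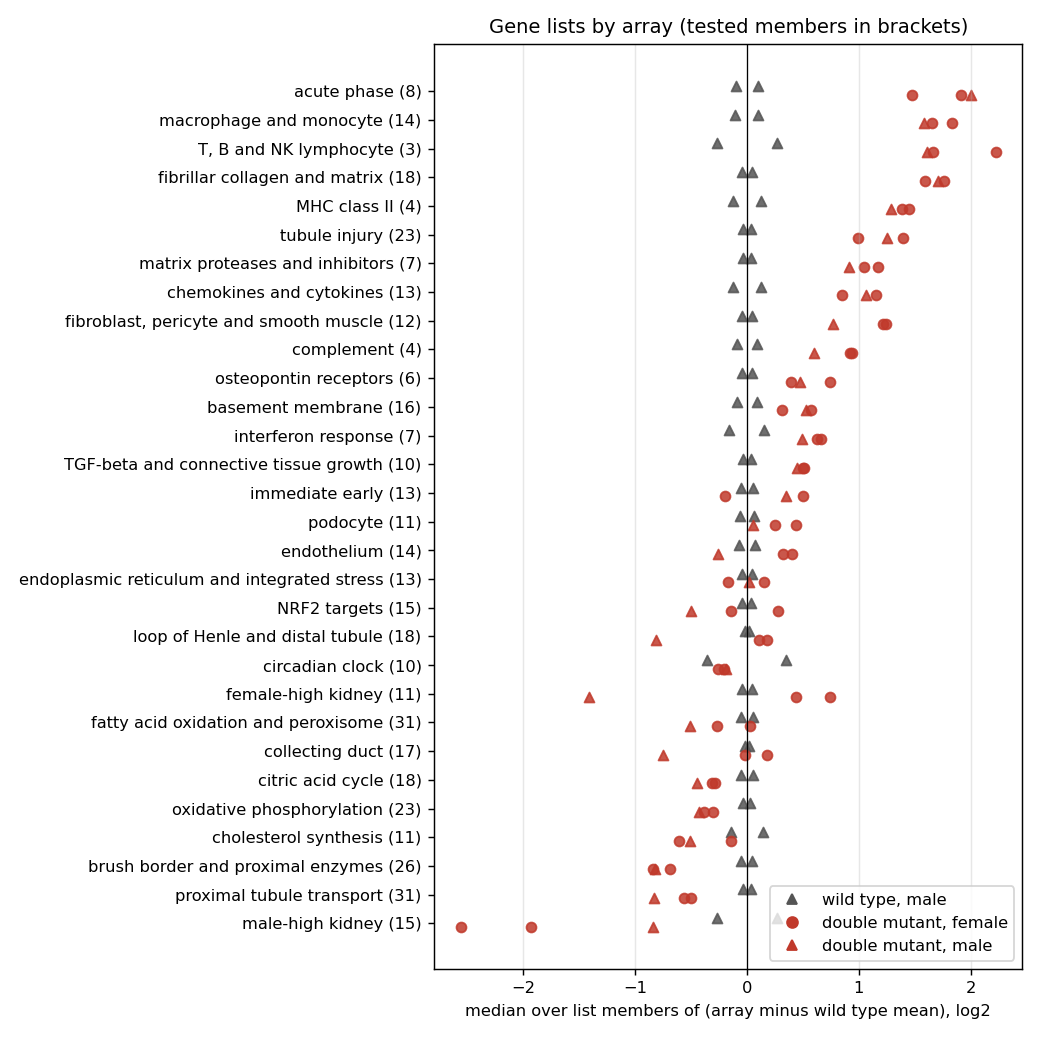
Median over each list's tested members (number in brackets) of the array's log2 level minus the wild type mean, 1 point per array; triangles are male, circles female. Matrix, injury and immune lists lie to the right and proximal tubule lists to the left in all 3 double mutants. The loop, endothelium and female-high lists put the male double mutant on the other side of 0 from both females. The collecting duct, NRF2, fatty acid oxidation, immediate early and endoplasmic reticulum stress lists put it on the other side from 1 female.

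Several genes known to differ between male and female kidney differed between the female double mutants and the males. Of 15 tested male-high genes, 12 lay below wild type in all double mutants (28.8 percent of all tested genes). The median was -1.75 over the group, and -0.84 in the male double mutant alone. Cyp2j13, an androgen-dependent cytochrome P450, measured 11.10 and 11.45 in the wild types and 5.30, 6.05 and 10.56 in double mutants 1, 2 and 3, and Cyp4b1, another, 12.48 and 12.74 in wild type against 10.77, 10.06 and 11.77 in double mutant kidney. Kap, the androgen-regulated protein of the proximal tubule, measured 12.50 and 12.54 in wild type and 11.91, 11.43 and 12.41 in the double mutants, with the male double mutant just under wild type. Aoc1, a diamine oxidase on the male-high list, went the other way (5.37 and 6.14 in the wild types and 7.28, 8.57 and 8.07 in double mutants 1, 2 and 3) and was called higher in the fit of 5 arrays. Of 11 tested female-high genes none was called without the sex term. With it 6 were called lower (17.8 percent of all tested genes), with a median of -1.83. The list's median by array was 0.44 and 0.74 in the female double mutants and -1.41 in the male. Slc7a12, an amino acid transporter, measured 9.73 and 6.24 in wild type against 11.33, 11.55 and 5.55 in double mutant kidney, so the wild type males themselves lay far apart. Abcc3, an export pump, measured 5.54 and 5.45 in wild type and 8.43, 8.51 and 5.99 in the double mutants. Slc22a19, an organic anion transporter, was level with wild type in the females and low in the male (9.82 and 10.66 in the wild types and 10.11, 10.11 and 7.91 in double mutants 1, 2 and 3). Cyp2a4, listed as female-high, was lower in the female than in the male double mutants (11.11 and 11.45 in wild type against 9.19, 8.78 and 10.31 in double mutant kidney).

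With the sex term the 12 largest calls on the higher side were Serpina3n (4.84), Havcr1 (4.34), Lcn2 (4.31), Col1a1 (4.23), Lyz2 (4.12), Krt20 (4.08), Gm3893 (4.07), Col3a1 (3.97), Ctss (3.63), Tnc (3.51), Vcam1 (3.38) and Fgg (3.38). Krt20, a keratin of stressed epithelium, measured 4.83 and 4.76 in wild type and 6.25, 9.14 and 8.87 in the double mutants, and Fgg, the gamma chain of fibrinogen, 6.04 and 4.94 in the wild types and 7.23, 9.14 and 9.62 in double mutants 1, 2 and 3. In both, double mutant 1 was the lowest of its group and the male was not. The adhesion molecule Vcam1 measured 6.35 and 6.33 in wild type against 8.54, 9.50 and 9.42 in double mutant kidney. The 12 largest on the lower side were Klk1b22 (-5.48), Hpd (-3.12), Cndp1 (-2.92), Dnase1 (-2.86), Rdh16f2 (-2.60), Slc22a19 (-2.58), Acmsd (-2.44), Acy1 (-2.38), Slc22a22 (-2.36), Cyp2c23 (-2.33), Cyp51 (-2.32) and Slco4c1 (-2.31). Klk1b22, a kallikrein protease, was low in every double mutant: 9.48 and 8.80 in wild type and 5.29, 5.81 and 4.87 in the double mutants. Hpd, an enzyme of tyrosine breakdown, was not: it measured 9.82 and 9.72 in the wild types and 8.98, 10.19 and 7.51 in double mutants 1, 2 and 3, with the females on either side of wild type and the male -2.26 from it. Rdh16f2, Slc22a19, Cyp2c23 and Slco4c1 were also lowest in the male, with differences without the sex term of -0.30, -0.87, -0.36 and -0.61, none of which passed. Their sex-adjusted values assume that sex acts alike in wild type and mutant kidney, which cannot be checked here because both wild type mice are male.

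**Figure D5:**
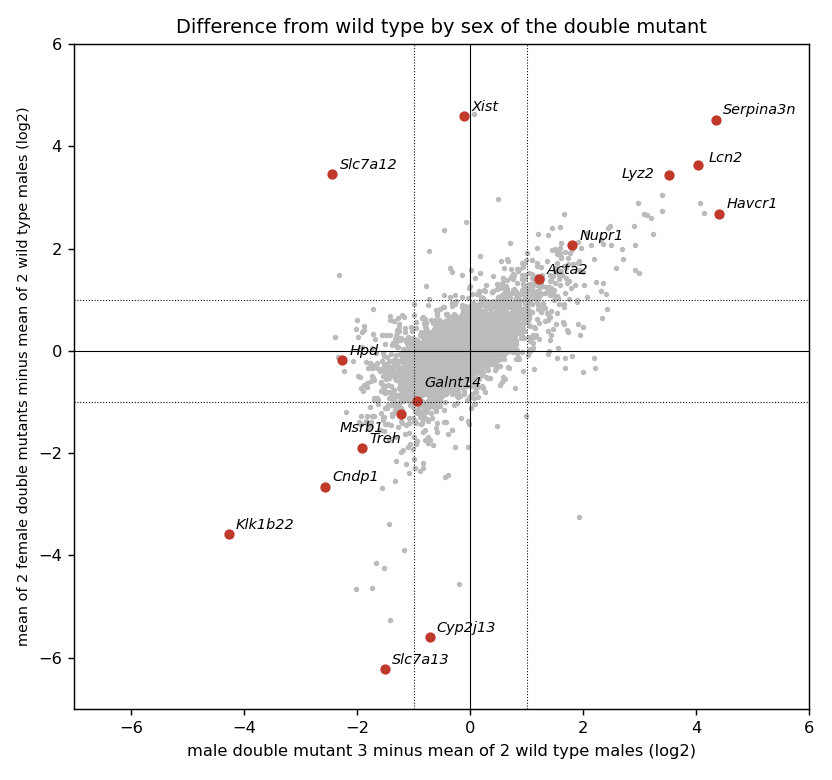
For every tested gene, the difference from the wild type mean in the male double mutant (x axis, log2) and in the mean of the 2 female double mutants (y axis, log2); dotted lines mark 1. Both axes use the same 2 wild type arrays, so the slope of the cloud is no result; the named genes show Serpina3n, Lcn2 and Lyz2 high on both axes, Cndp1 and Klk1b22 low on both, and Xist, Slc7a12, Cyp2j13 and Slc7a13 far out on the female axis.

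Among the 345 genes called higher with the sex term that have a promoter window, 28 (8.12%) held the AP-1 motif TGANTCA, against 5.62% of all windows of tested genes, and 7 (2.03%) held the NF-kB motif GGGA, any base, then TTTCC, against 0.458%. AP-1 and NF-kB are transcription factors of injury and inflammatory signalling. Among the 1049 called lower, 48 (4.58%) held AP-1 and 4 (0.381%) NF-kB, while 11 (1.05%) held the HNF4 motif, against 1 (0.29%) of those called higher. The C/EBP-ATF motif shown in the Nupr1 window stood in 9 (2.61%) of the genes called higher and 25 (2.38%) of those called lower, close to its share of all windows. Motifs were searched on both strands and may overlap; the shares are descriptions of these windows.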

How the data were processed

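The log2 expression values were used as deposited by the authors, 1 per probe set and kidney, with a range of 4.20 to 13.43 and array medians of 5.18 to 5.25; the scale was read from that range, and how the authors normalized them is not stated per the labels. The labels name a labelling kit sold for small RNA, while the probe sets are those of a gene array. Probe sets naming several genes (1814) or none (8458) were left out, and the probe set with the highest mean stood for its gene. Genes whose mean over the arrays exceeded the table's 75th percentile were kept. limma 3.58.1 (R 4.3.3; lmFit and eBayes, Benjamini-Hochberg) fitted 3 groups over 8 arrays; the code was tested on simulated data. Arrays replace depth here, and their number limits the precision.

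The members and gene lists were chosen with earlier results of these data known. Genes named were, for each of the fits without and with the sex term, the 12 largest calls in each direction (filled up by smallest p), and, per list, the first 3 measured and the 3 with the smallest p, from which examples were taken; Col4a3 and sex genes were always given. Slc7a13, drawn in the plot by sex, was chosen after its values were seen. Alternatives changed the filter, normalization, probe set rule, prior, array weights, samples, sex term and replicate block. Expression of the osteopontin gene is not reported here. Figures were drawn with matplotlib 3.10.9.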

Additional observations from a re-analysis of the deposited data

How the results depend on the processing

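Of the 6 genes called, all were called under array weights, a trended robust prior, a 50th percentile filter, a filter on 2 or more arrays, the mean of probe sets, and without single mutant replicate 2 or double mutant replicate 3. Median centring lost Acta2, quantile normalization and cyclic loess lost Galnt14, and no filter lost Lcn2 and Serpina3n. Leaving out single mutant replicate 1 lost Acta2, Galnt14 and Lcn2, single mutant replicate 3 lost Acta2, Galnt14 and Serpina3n, and double mutant replicate 2 lost all but Nupr1. The replicate block, and leaving out wild type replicate 1, wild type replicate 2 or double mutant replicate 1, lost all 6. Against 4 higher and 2 lower, array weights called 600 and 672, the fit of only wild type and double mutant arrays 193 and 151, and the sex term 457 and 1271. On the lower side no filter called 7, the 50th percentile filter 11, the filter on 2 or more arrays 15, the trended robust prior 4, and quantile normalization, cyclic loess and a log2 difference of at least 1 called 1 each. Leaving out 1 replicate gave 0 to 292 higher and 0 to 298 lower. Against 457 higher and 1271 lower with the sex term, the 50th percentile filter called 748 higher, cyclic loess 709 higher, the 5 arrays alone 299 and 795, and a log2 difference of at least 1 254 and 438; leaving out 1 replicate gave 37 to 574 higher and 33 to 1195 lower. The causes were not tested.

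Same-numbered arrays of wild type and double mutant had deviations correlating at -0.06 and 0.10, so the numbers were not taken as pairs. A replicate block called 0 higher and 0 lower without the sex term (limma; 1213 genes at an unadjusted p under 0.05, smallest adjusted p = 0.0597), and 514 and 1318 with it.

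Col4a3 differed by -1.0 in the male arrays alone, and its adjusted p ranged from 0.0657 to 0.442 over its alternatives. Small differences of uncalled genes turned sign. With the sex term Podxl was -0.35, Wt1 -0.052, Umod -0.13, Xist -0.16 and Slc7a12 -2.25. After cyclic loess and quantile normalization Slc12a1 was 0.025 and 0.016, and Nqo1 0.015 and 0.010. Under the replicate block Slc12a1 was 0.059, Aqp2 0.024 and Nqo1 0.0023. Over replicates left out, Csf1r ran from -0.067 to 0.20, Slc12a1 from -0.22 to 0.28, Aqp2 from -0.77 to 0.21, Nqo1 from -0.33 to 0.29, Atf4 from -0.069 to 0.13 and Slc7a12 from -0.25 to 3.46.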
